A study of Homo sapiens with 42 samples.

Results

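The aminoacyl-tRNA synthetases attach each amino acid to its tRNA, and this account follows their genes and the scaffold genes of the complex that many of them form, 38 of the 34318 genes measured. The rule is a list of gene symbols. The genes comprise 19 genes of cytosolic enzymes, 16 genes of mitochondrial enzymes, whose symbols end in 2, and the scaffold genes AIMP1, AIMP2 and EEF1E1. All 38 were present in the deposited tables.

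RNA polymerase III (Pol III) makes the cytosolic tRNAs, and cytosolic synthetases charge them for translation by cytosolic ribosomes. Mitochondrial synthetases are encoded in the nucleus and imported to charge the tRNAs transcribed from mitochondrial DNA, while GARS1 and KARS1 each encode the enzyme of both compartments. Uncharged tRNA activates the kinase GCN2 (EIF2AK4), which phosphorylates eIF2 and raises translation of the transcription factor ATF4; many cytosolic synthetase genes are known ATF4 targets, among them AARS1, CARS1, EPRS1, GARS1, IARS1, LARS1, MARS1, NARS1, SARS1, TARS1, VARS1, WARS1 and YARS1. POLR3G and POLR3GL encode alternative forms of the same Pol III subunit, and MAF1 is a repressor of Pol III.

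The study asked how disturbing Pol III affects the expression of other genes, using stranded mRNA libraries from human cell lines, 14 groups of 3 libraries in 5 experiments. In HEK293T, a human embryonic kidney line, cells received an antisense oligonucleotide (ASO) against POLR3G or a scrambled ASO at 200 nM for 48 h, or an siRNA against POLR3G or a control siRNA at 200 nM for 48 h. Other HEK293T cells received the siRNA siE4, siE6 or siE8, each directed at POLR3GL, or a control siRNA, at 25 nM for 48 h, and others were transfected with MAF1 or eGFP for 48 h. THP-1 cells, a human monocytic leukaemia line, were given the Pol III inhibitor ML-60218 (ML6 in the sample labels) at 25 uM for 4 h, the translation inhibitor cycloheximide (CHX) at 10 ug/ml for 4.5 h, CHX plus ML-60218, or DMSO. Oligonucleotides and plasmids were delivered by transient lipid transfection, so expression was measured in whole transfected cultures. The labels do not say whether the libraries of a group came from separate cultures, so p-values measure the spread between these libraries, which may be technical.

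Libraries held between 32705684 and 52568088 estimated reads. Values per library are CPM, read counts scaled to library size within each experiment. POLR3G had 10.6, 6.72 and 8.38 CPM in POLR3G ASO libraries, against 28.4, 21.4 and 22.5 CPM in scrambled ASO libraries, a log2 fold change of -1.49 ± 0.16 (SE). With the siRNA, POLR3G had 14.6, 12 and 16.9 CPM in POLR3G siRNA libraries, against 31.1, 41.5 and 30.6 CPM in control siRNA libraries, a log2 fold change of -1.25 ± 0.15. POLR3GL fell under each of its siRNAs, with log2 fold changes of -3.56 with siE4, -3.35 with siE6 and -3.71 with siE8, and MAF1 rose by 6.22 in MAF1-transfected cells. The POLR3G siRNA libraries also differed in MAF1, which had 9.06, 10.2 and 10.2 CPM in POLR3G siRNA libraries, against 49.7, 51.4 and 48.8 CPM in control siRNA libraries, 5.07-fold lower. POLR3G itself fell with siE4, siE6 and siE8, at -0.85, -0.56 and -0.93, and POLR3GL fell, at -0.44 with the POLR3G ASO and -0.57 with the POLR3G siRNA. In THP-1 groups POLR3G averaged 0.797 to 1.23 CPM. Summed TPM of 6 kidney-line markers was 108 to 491 in HEK293T libraries and 1.39 to 3.10 in THP-1 libraries, and that of 8 monocytic markers was 1.33 to 18.7 in HEK293T libraries and 3917 to 6013 in THP-1 libraries. These are bulk libraries, in which fewer cells of one kind and less RNA per cell cannot be told apart.

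ATF4 acts through C/EBP-ATF response elements, whose core TGATGNAA was searched on both strands in RefSeq promoter windows (GRCh38.p14) of 300 bases, from 250 bases before to 50 bases after each gene's start. It was present in 7 of the 10 known ATF4 targets with a window, in 0 of 6 other cytosolic synthetases, in 1 of 14 mitochondrial synthetases and in 0 of 3 scaffold genes, against 1217 of all 27305 genes with a window (4.46%; 1270 of 35116 windows, 3.62%). A match is a description of letters and not a site or a cause, and these promoters were not assayed. The 8 matches are shown because 7 of them lie in the cytosolic enzymes that the results turn on, written 5′ to 3′ in the direction of transcription with the matched core in capitals. Of the 38 genes 33 had a window; LARS1, VARS1, YARS1, AARS2 and VARS2 are named only.
AARS1, chr16:70289660-70289719, - strand: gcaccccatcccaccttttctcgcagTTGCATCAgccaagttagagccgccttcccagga
CARS1, chr11:3057394-3057451, - strand: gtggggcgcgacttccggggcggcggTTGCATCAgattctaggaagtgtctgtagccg
GARS1, chr7:30594819-30594878, + strand: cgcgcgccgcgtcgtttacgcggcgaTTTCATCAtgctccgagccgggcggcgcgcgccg
IARS1, chr9:92293677-92293736, - strand: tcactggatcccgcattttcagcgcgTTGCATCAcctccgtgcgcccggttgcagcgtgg
MARS1, chr12:57488038-57488097, + strand: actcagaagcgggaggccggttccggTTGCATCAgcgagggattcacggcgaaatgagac
NARS1, chr18:57621807-57621848, - strand: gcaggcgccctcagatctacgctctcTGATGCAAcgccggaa
TARS1, chr5:33440941-33440994, + strand: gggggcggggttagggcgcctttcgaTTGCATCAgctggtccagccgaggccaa
YARS2, chr12:32756061-32756120, - strand: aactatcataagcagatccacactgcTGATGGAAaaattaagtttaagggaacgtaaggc

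Of these, the TARS1, CARS1, MARS1, IARS1, NARS1 and GARS1 cores begin between 33 bases before and 15 bases after the start, and the AARS1 and YARS2 cores begin 187 and 197 bases before it. FARSA and FARSB, which encode the alpha and beta subunits of the cytosolic phenylalanyl-tRNA synthetase, hold no such core in their windows. Their letters around the start are shown as examples of windows without the core, taken by order of symbol among the other cytosolic synthetases.
FARSA, chr19:12933682-12933741, - strand: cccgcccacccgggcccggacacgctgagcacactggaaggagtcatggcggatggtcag
FARSB, chr2:222656063-222656122, - strand: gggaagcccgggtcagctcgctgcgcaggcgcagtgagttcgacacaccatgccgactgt

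HARS1 and HARS2, the cytosolic and mitochondrial histidyl-tRNA synthetases, are transcribed head to head from starts 85 bases apart. Their shared region is shown on the HARS2 strand, with capitals from the HARS1 start to the HARS2 start.
HARS1 and HARS2, chr5:140691340-140691484, + strand: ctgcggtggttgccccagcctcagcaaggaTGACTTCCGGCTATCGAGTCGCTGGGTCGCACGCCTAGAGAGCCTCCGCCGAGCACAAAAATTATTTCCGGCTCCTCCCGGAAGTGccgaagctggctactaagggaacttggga

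In control HEK293T cells most cytosolic enzymes stood above most mitochondrial ones, but the classes overlapped. Levels per transcript length are given as TPM, scaled to the same total in every library, over the 12 HEK293T control libraries as the median with the lowest and highest library. The serine enzyme SARS1 had 239 TPM (173 to 285 TPM), the methionine enzyme MARS1 238 TPM (203 to 278 TPM), the isoleucine enzyme IARS1 205 TPM (164 to 254 TPM) and the threonine enzyme TARS1 203 TPM (184 to 216 TPM). The ranges of these 4 overlap, so their order is not resolved. IARS2, the mitochondrial isoleucine enzyme, led its class with 153 TPM (127 to 174 TPM), inside the range of the cytosolic enzymes, and TARS2 followed with 58.6 TPM (47.7 to 66.8 TPM). The other mitochondrial genes had medians at or under that of YARS2, at 33.7 TPM (27.3 to 38.7 TPM), down to PARS2 at 6.87 TPM (4.95 to 9.8 TPM). The lowest cytosolic genes lay among them, with VARS1 at 37.8 TPM (29.6 to 53 TPM), CARS1 at 35.3 TPM (23.7 to 39.6 TPM) and FARSB at 30.3 TPM (24.8 to 35.8 TPM). HARS1, at 53.9 TPM (44.6 to 55.9 TPM), had a median below that of TARS2. For VARS1 and for SARS2 only 1 of 14 annotated transcripts, the principal one, was in the tables. All values of these genes leave the other transcripts out. Among the scaffold genes EEF1E1 had 136 TPM (129.9 to 163 TPM) and AIMP2 53.8 TPM (47.3 to 68.9 TPM), but AIMP1 only 3.7 TPM (1.83 to 5.14 TPM).

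THP-1 cells ordered the family differently. In DMSO libraries NARS1, the asparagine enzyme, ranked first at 175 ± 5.5 TPM (SD, n = 3), followed by QARS1 at 125 ± 3.7 TPM, EPRS1 at 104 ± 6.6 TPM and KARS1 at 101 ± 2.7 TPM. The neighbours EPRS1 and KARS1 did not differ beyond their spread. IARS2 ranked 5 at 91.7 ± 1.8 TPM, above the mean of every other mitochondrial gene. The cysteine enzyme CARS1 stood at only 0.51 ± 0.14 TPM in DMSO libraries, and 0.0% of its matched reads there fell on protein-coding transcripts, so its THP-1 values are counted in the class but not described. VARS2 was listed at 0 in the HEK293T control libraries; only 3 of its 12 annotated transcripts, without the principal one, were in the tables, and it was tested in THP-1 cells alone.

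**Figure D1:**
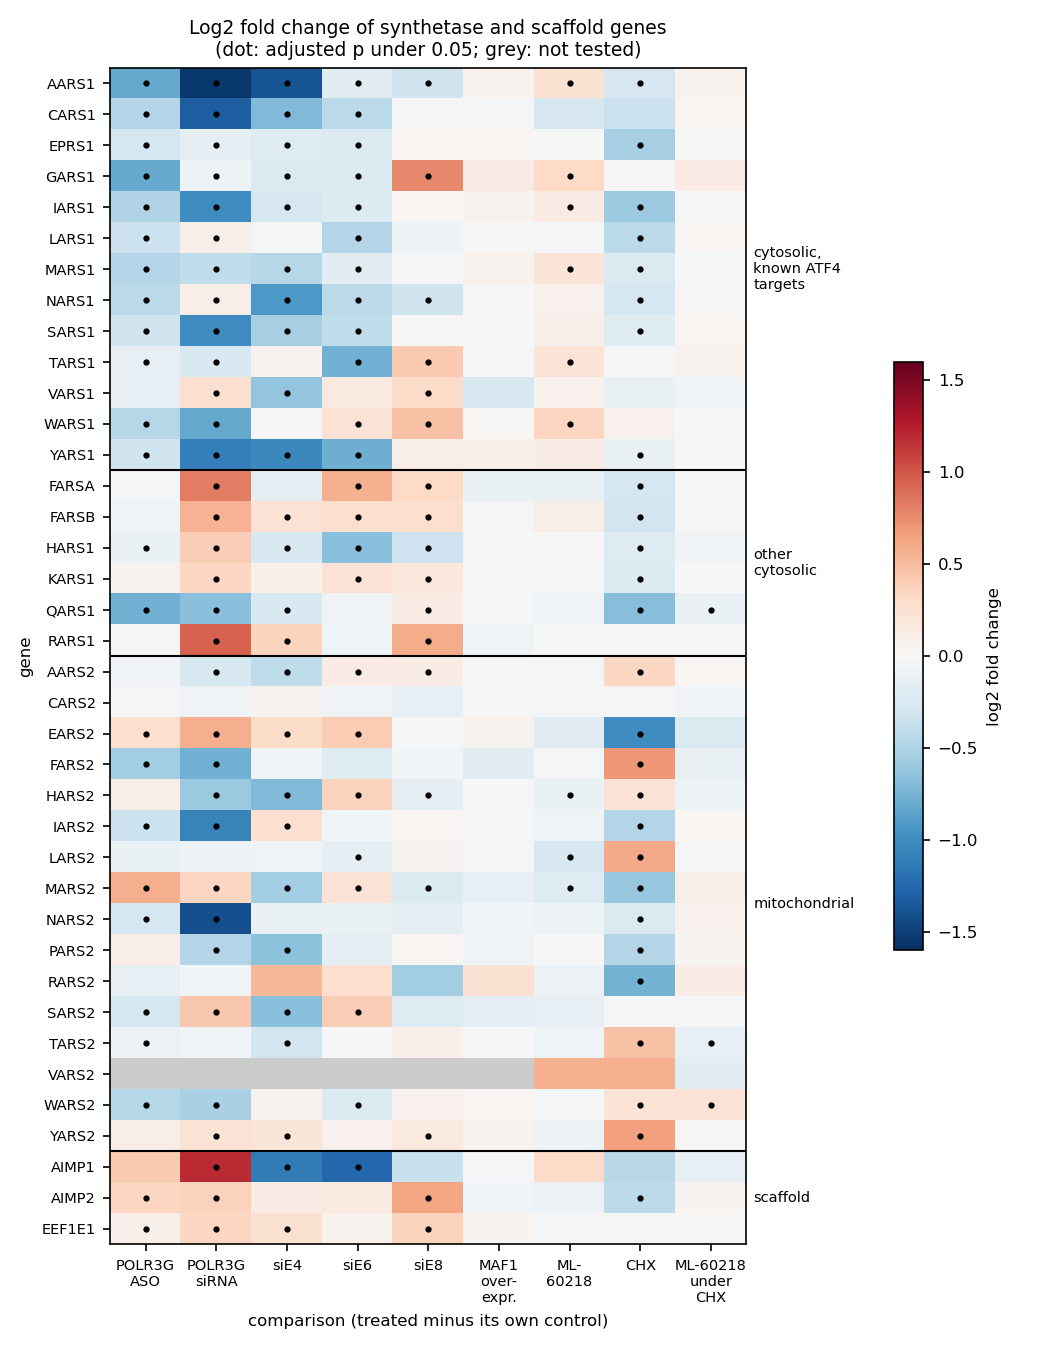
Colour gives the log2 fold change of each synthetase and scaffold gene (down the page, by class) in each of 9 comparisons (across), with a dot where the adjusted p was under 0.05. The cytosolic block known as ATF4 targets is mostly lower with the POLR3G ASO, POLR3G siRNA, siE4 and siE6, and the MAF1 overexpression column holds no dot.

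Differences between groups were tested on estimated counts with edgeR's quasi-likelihood test over all genes, and a gene is said to have risen or fallen where its Benjamini-Hochberg adjusted p over all genes was under 0.05. CPM was scaled by TMM within each experiment and compares 1 gene between libraries, not genes with each other. Log2 fold changes are given with their standard errors.

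The POLR3G ASO lowered the cytosolic class. Of 19 cytosolic synthetases 14 fell and 0 rose, with a median log2 fold change of -0.32, where 34.1% of the 17098 genes tested fell, 34.4% rose and the median was -0.0033. No cytosolic gene was higher at an unadjusted p under 0.05 by edgeR, and DESeq2 called 0. Of 15 mitochondrial synthetases tested 6 fell and 2 rose (median -0.077), and of 3 scaffold genes 2 rose. The falls took in 12 of the 13 known ATF4 targets (median -0.44) and 2 of the 6 other cytosolic genes (median -0.054).

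The alanine enzyme AARS1 had 142, 147 and 137 CPM in POLR3G ASO libraries, against 244, 253 and 256 CPM in scrambled ASO libraries. The glycine enzyme GARS1 had 219, 229 and 216 CPM in POLR3G ASO libraries, against 391, 375 and 392 CPM in scrambled ASO libraries. QARS1, the glutamine enzyme, had 93.6, 84.9 and 83.2 CPM in POLR3G ASO libraries, against 155, 148 and 143 CPM in scrambled ASO libraries. In each of these genes all 3 POLR3G ASO libraries lay below all 3 scrambled ASO libraries, with log2 fold changes of -0.82 ± 0.031 for AARS1, -0.80 ± 0.029 for GARS1 and -0.77 ± 0.046 for QARS1 (adjusted p at most 1.21e-06). IARS1 followed with 589.8, 591 and 587 CPM in POLR3G ASO libraries, against 835, 795 and 835 CPM in scrambled ASO libraries, a log2 fold change of -0.48 ± 0.023 (adjusted p = 3.39e-07). MARS1, close behind at -0.47, CARS1 at -0.47, WARS1 at -0.45 and NARS1 at -0.44 fell alike. Protein-coding transcripts took 72.0% of the matched CARS1 reads with the ASO and 84.0% with the scrambled ASO, 80.8% and 86.7% for QARS1 and 79.6% and 86.3% for HARS1, and the part of this in their falls was not tested. The smaller falls were in LARS1, SARS1, YARS1, EPRS1, TARS1 and HARS1, between -0.35 and -0.11. FARSA, FARSB, KARS1, RARS1 and VARS1 did not pass the test, with log2 fold changes between -0.13 and 0.058.

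Among the mitochondrial genes MARS2, the methionine enzyme, stood against the falls. It had 37.9, 39.9 and 41.5 CPM in POLR3G ASO libraries, against 26.2, 26.8 and 26.7 CPM in scrambled ASO libraries, a log2 fold change of 0.58 ± 0.044 (adjusted p = 4.13e-06), and its groups did not overlap. EARS2, which charges mitochondrial tRNAs with glutamate, had 36, 29.5 and 33.9 CPM in POLR3G ASO libraries, against 30.4, 26.3 and 25.9 CPM in scrambled ASO libraries. Its groups overlapped, and its log2 fold change of 0.27 ± 0.083 (adjusted p = 0.018) no longer passed without ASO replicate 1 or 3 or scrambled replicate 2 or 3, with adjusted p up to 0.076. The phenylalanine enzyme FARS2 had 5.65, 7.15 and 6.1 CPM in POLR3G ASO libraries, against 9.27, 8.51 and 9.91 CPM in scrambled ASO libraries, a log2 fold change of -0.55 ± 0.11 that did not pass with a length offset, a fit that corrects for each gene's effective transcript length (adjusted p = 0.23). WARS2, the tryptophan enzyme, had 25.3, 28.2 and 27.4 CPM in POLR3G ASO libraries, against 36.9, 37.4 and 37 CPM in scrambled ASO libraries, and IARS2 had 305, 307 and 295 CPM in POLR3G ASO libraries, against 395, 383 and 369 CPM in scrambled ASO libraries. Both were lower in every POLR3G ASO library, with log2 fold changes of -0.46 ± 0.047 for WARS2 and -0.34 ± 0.028 for IARS2 (adjusted p at most 2.48e-05). NARS2 and SARS2 fell, at -0.28 and -0.29, and the fall of TARS2 (-0.077) was lost without ASO replicate 3 or scrambled replicate 2, with DESeq2 and with the length offset (adjusted p up to 0.45). CARS2, LARS2, AARS2, HARS2, PARS2, RARS2 and YARS2 did not pass the test.

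Of the scaffold genes, AIMP2 rose under each of the 11 alternatives. It had 45.8, 47.7 and 49.4 CPM in POLR3G ASO libraries, against 36.4, 37.8 and 38.6 CPM in scrambled ASO libraries, higher in every POLR3G ASO library at 0.34 ± 0.039 (adjusted p = 5.65e-05), while 5 of the 7 enzymes of the multisynthetase complex fell and 0 rose, 0 also at an unadjusted p and by DESeq2. EEF1E1 had 70.3, 70.3 and 72.7 CPM in POLR3G ASO libraries, against 65.7, 68.7 and 67 CPM in scrambled ASO libraries, a small rise of 0.082 ± 0.030 whose call ended without any single library other than scrambled replicate 2 (adjusted p up to 0.26 over the alternatives). AIMP1 did not pass the test at 0.42 and averaged 125.4 reads over all libraries. The share of reads from mitochondrial DNA was 7.67% to 7.88% in POLR3G ASO libraries and 9.07% to 9.86% in scrambled ASO libraries, and its part in the mitochondrial results was not tested.

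With the POLR3G siRNA every cytosolic synthetase passed the test, in both directions. Of 19 cytosolic synthetases 11 fell and 8 rose (median -0.15), where 38.1% of the 15423 genes tested fell and 36.8% rose (median -0.020). Of 13 known ATF4 targets 10 fell and 3 rose (median -0.41), and of the 6 others 1 fell and 5 rose (median 0.47). Mitochondrial genes gave 7 falls and 4 rises of 15 tested (median -0.083), and all 3 scaffold genes rose.

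AARS1 had 135, 142 and 142 CPM in POLR3G siRNA libraries, against 399, 402 and 417 CPM in control siRNA libraries, the steepest fall of the cytosolic class at -1.54 ± 0.027 (adjusted p = 5.15e-10). CARS1, with 33.6, 26.3 and 29 CPM in POLR3G siRNA libraries, against 77.7, 70.8 and 72.4 CPM in control siRNA libraries, fell, at -1.31 ± 0.077. The tyrosine enzyme YARS1 had 181, 178 and 181 CPM in POLR3G siRNA libraries, against 383, 387 and 381 CPM in control siRNA libraries. SARS1 had 181, 177 and 181 CPM in POLR3G siRNA libraries, against 361, 362 and 358 CPM in control siRNA libraries. These 2 genes changed by -1.09 ± 0.018 and -1.0 ± 0.018, and in all 4 named here the groups were far apart (adjusted p at most 4.38e-07). IARS1 (-0.99), WARS1 (-0.82), QARS1 (-0.67), MARS1 (-0.41), TARS1 (-0.24) and EPRS1 (-0.15) also fell. Protein-coding transcripts took 82.5% of the matched QARS1 reads with the POLR3G siRNA and 89.7% with the control siRNA, and 84.2% and 75.2% for MARS1, and the part of this was not tested. The call of GARS1 (-0.081) was lost without siRNA replicate 1 or 2 or control replicate 2 (adjusted p up to 0.092).

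RARS1, the arginine enzyme, rose most, with 404, 424 and 407 CPM in POLR3G siRNA libraries, against 214, 213 and 217 CPM in control siRNA libraries, a log2 fold change of 0.94 ± 0.022. FARSA had 158, 160.4 and 163 CPM in POLR3G siRNA libraries, against 92.7, 91.1 and 89 CPM in control siRNA libraries, and its partner subunit FARSB had 206, 213 and 207 CPM in POLR3G siRNA libraries, against 139.6, 142 and 145 CPM in control siRNA libraries. Both subunits were higher in every POLR3G siRNA library, by 0.82 ± 0.023 for FARSA and 0.55 ± 0.023 for FARSB. HARS1 had 117, 121 and 115 CPM in POLR3G siRNA libraries, against 90.2, 89.4 and 89.6 CPM in control siRNA libraries, a rise of 0.39 ± 0.023 (adjusted p at most 4.84e-07 in these 4 genes). The lysine enzyme KARS1 rose by 0.33 and LARS1 by 0.088. The rise of NARS1 (0.10) was lost with the length offset (adjusted p = 0.30), and that of VARS1 (0.25) without siRNA replicate 1 or control replicate 1 or 2 (adjusted p up to 0.096).

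NARS2, the mitochondrial asparagine enzyme, had 15.8, 15.3 and 14.1 CPM in POLR3G siRNA libraries, against 38.7, 40.1 and 41 CPM in control siRNA libraries. IARS2 had 189.7, 191 and 189 CPM in POLR3G siRNA libraries, against 402, 392 and 397 CPM in control siRNA libraries. FARS2 had 4.08, 3.87 and 4.75 CPM in POLR3G siRNA libraries, against 7.49, 6.68 and 7.43 CPM in control siRNA libraries. All 3 were lower in every POLR3G siRNA library, with log2 fold changes of -1.41 ± 0.047 for NARS2, -1.06 ± 0.018 for IARS2 and -0.77 ± 0.10 for FARS2 (adjusted p at most 1.21e-04). HARS2, WARS2, PARS2 and AARS2 fell, at -0.60, -0.52, -0.47 and -0.26.

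Against these, EARS2 had 24.3, 22 and 22.2 CPM in POLR3G siRNA libraries, against 15.4, 13.6 and 16.7 CPM in control siRNA libraries, a log2 fold change of 0.59 ± 0.076 that did not pass with the length offset (adjusted p = 0.61). The serine enzyme SARS2 had 12.1, 13 and 13.2 CPM in POLR3G siRNA libraries, against 10.7, 8.68 and 9.05 CPM in control siRNA libraries, a rise of 0.43 ± 0.087 (adjusted p = 0.0017). MARS2, which had 32.3, 32.9 and 32.7 CPM in POLR3G siRNA libraries, against 25.5, 24.8 and 26.6 CPM in control siRNA libraries, rose by 0.35 ± 0.036, and YARS2 by 0.23 ± 0.031. CARS2, LARS2, RARS2 and TARS2 did not pass the test. AIMP1 had 10.3, 7.28 and 6.11 CPM in POLR3G siRNA libraries, against 1.85, 3.26 and 5.27 CPM in control siRNA libraries, a rise of 1.19 ± 0.33 (adjusted p = 0.010) at a low level. AIMP2 had 40.3, 42.5 and 39.2 CPM in POLR3G siRNA libraries, against 32.1, 32.1 and 30.4 CPM in control siRNA libraries, and EEF1E1 had 69.8, 71.3 and 69.5 CPM in POLR3G siRNA libraries, against 55.8, 55.7 and 56.6 CPM in control siRNA libraries, rises of 0.37 ± 0.040 for AIMP2 and 0.33 ± 0.024 for EEF1E1 with no overlap of groups. MAF1 was also lower in these libraries, and mitochondrial DNA gave 4.37% to 5.09% of reads with the POLR3G siRNA and 5.36% to 5.64% with the control siRNA; the part of either in these results was not tested.

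**Figure D2:**
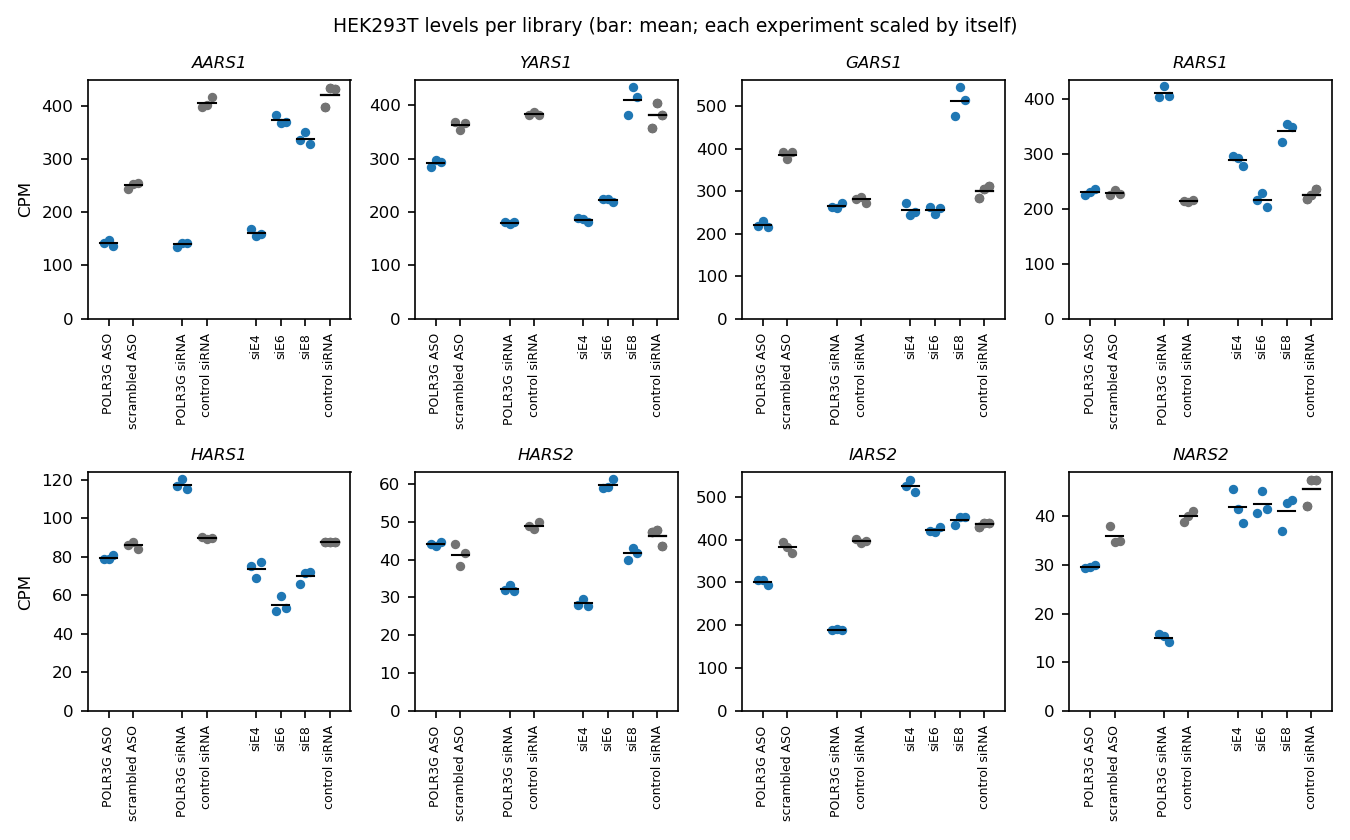
CPM of each library (points, vertical axis) for 8 synthetase genes in the POLR3G ASO, POLR3G siRNA and POLR3GL siRNA experiments, each scaled by itself. AARS1 is lower than in control cells in each knockdown, at 135 to 142 CPM with the POLR3G siRNA and 156 to 169 CPM with siE4, whereas RARS1 is at 404 to 424 CPM with the POLR3G siRNA against 213 to 217 CPM in control cells.

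The POLR3G ASO and siRNA effects differed in most cytosolic synthetases. In one fit over the 12 libraries, the POLR3G ASO effect minus the POLR3G siRNA effect was above 0 for 7 and below 0 for 11 of 19 cytosolic genes, where 33.8% of 17489 genes were above and 33.0% below 0. The all-gene median of this difference was 0.077, and the median of the cytosolic genes was -0.16.

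The difference was 0.81 ± 0.10 for CARS1, 0.75 ± 0.030 for YARS1, 0.69 ± 0.044 for AARS1 and 0.66 ± 0.026 for SARS1, genes that fell in both but further with the siRNA (adjusted p at most 1.11e-05). It was -0.96 ± 0.035 for RARS1, -0.88 ± 0.035 for FARSA, -0.75 ± 0.040 for GARS1 and -0.65 ± 0.038 for FARSB (adjusted p at most 6.03e-09). Of those, GARS1 fell further with the ASO (-0.80) than with the siRNA (-0.081). Among mitochondrial genes the difference was above 0 for 6 and below 0 for 3 of 15, led by NARS2 at 1.1 ± 0.068, IARS2 at 0.69 ± 0.034 and HARS2 at 0.66 ± 0.061 on one side and by SARS2 at -0.74 ± 0.11 on the other. EARS2, at -0.35 ± 0.13, had 0.23 with the length offset, the opposite sign, and lost its call without ASO replicate 2, siRNA replicate 1, scrambled replicate 1 or control replicate 2 (adjusted p up to 0.12). YARS2, at -0.15, was lost without ASO replicate 2 or 3, siRNA replicate 3 or scrambled replicate 2 (adjusted p up to 0.14). Of the scaffold genes EEF1E1 had -0.27 ± 0.036. The oligonucleotide chemistry, its control and the experiment cannot be told apart in this difference.

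The siRNAs siE4 and siE6 each lowered 12 of 19 cytosolic synthetases, and siE8 raised 9 and left 7 uncalled. The 3 comparisons share 1 set of control siRNA libraries, so values are given side by side, and differences between the siRNAs were not tested. Of 19 cytosolic synthetases siE4 lowered 12 and raised 2 (median -0.24), siE6 lowered 12 and raised 4 (median -0.21), and siE8 lowered 3 and raised 9 (median 0.11). Of the 15573 genes tested, siE4 lowered 28.7% and raised 26.2%, siE6 lowered 31.8% and raised 31.2%, and siE8 lowered 28.6% and raised 29.1%, with all-gene medians of -0.021, -0.0018 and -0.0090. Among the 13 known ATF4 targets the falls numbered 10, 11 and 2 and the rises 0, 1 and 4 with siE4, siE6 and siE8 in turn. With siE4, 0 of those targets were higher at an unadjusted p by edgeR and 0 by DESeq2.

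AARS1 had 169, 156 and 159.6 CPM in siE4 libraries, 383, 369 and 369 CPM in siE6 libraries and 335, 352 and 328 CPM in siE8 libraries, against 398, 434 and 433 CPM in control siRNA libraries. It was lower in every siRNA library, at -1.39 ± 0.047 with siE4, -0.17 ± 0.045 with siE6 and -0.32 ± 0.046 with siE8 (adjusted p at most 0.0045). YARS1 had 188, 187 and 182 CPM in siE4 libraries, 224, 225 and 219 CPM in siE6 libraries and 382, 435 and 416 CPM in siE8 libraries, against 358, 404 and 382 CPM in control siRNA libraries. Its falls with siE4 (-1.04 ± 0.052) and siE6 (-0.78 ± 0.052) passed the test, and its siE8 value of 0.11 did not. NARS1 had 164, 161 and 155 CPM in siE4 libraries, 227, 233 and 220.3 CPM in siE6 libraries and 226, 256 and 251 CPM in siE8 libraries, against 293, 297 and 320.4 CPM in control siRNA libraries, with log2 fold changes of -0.92 ± 0.052, -0.42 ± 0.051 and -0.31 ± 0.051 in that order. For NARS1 the siE4 libraries were the lowest and all 9 siRNA libraries lay below the controls. CARS1 had 45.2, 45.7 and 43.8 CPM in siE4 libraries, against 73.9, 73.2 and 72.2 CPM in control siRNA libraries, log2 fold changes of -0.70 with siE4 and -0.43 with siE6 and a value of -0.029 with siE8 that did not pass.

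TARS1 passed the test in opposite directions with siE6 and siE8. It had 438, 426 and 414 CPM in siE4 libraries, 246, 244 and 235 CPM in siE6 libraries and 513, 563 and 564 CPM in siE8 libraries, against 387, 411 and 431 CPM in control siRNA libraries. The siE4 value of 0.055 did not pass, siE6 gave a log2 fold change of -0.76 ± 0.049 and siE8 a rise of 0.42 ± 0.049. GARS1 had 271, 244 and 252 CPM in siE4 libraries, 263, 246 and 261 CPM in siE6 libraries and 476, 545 and 514 CPM in siE8 libraries, against 285, 305 and 313 CPM in control siRNA libraries, log2 fold changes of -0.23 with siE4 and -0.23 with siE6 and a rise of 0.77 ± 0.057 with siE8 (adjusted p = 1.11e-07). WARS1 had 122, 123 and 118 CPM in siE4 libraries, 140.3, 150.2 and 143 CPM in siE6 libraries and 158, 178 and 174 CPM in siE8 libraries, against 115, 128 and 125 CPM in control siRNA libraries. It rose by 0.24 ± 0.052 with siE6 and 0.47 ± 0.052 with siE8 and gave -0.021 with siE4, which did not pass.

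Of the 6 cytosolic enzymes outside the ATF4 list, siE4 raised 2 and lowered 2, siE6 raised 3 and lowered 1, and siE8 raised 5 and lowered 1. RARS1 had 296, 292 and 278 CPM in siE4 libraries, 215, 229 and 203 CPM in siE6 libraries and 322, 355 and 350.0 CPM in siE8 libraries, against 218, 225 and 236 CPM in control siRNA libraries, rises of 0.35 ± 0.053 with siE4 and 0.60 ± 0.053 with siE8 and -0.069 with siE6, which did not pass. FARSA had 95.4, 88.9 and 88 CPM in siE4 libraries, 148, 152 and 148 CPM in siE6 libraries and 113, 135 and 127 CPM in siE8 libraries, against 95.6, 107 and 98.7 CPM in control siRNA libraries. It rose by 0.57 ± 0.061 with siE6 and 0.31 ± 0.062 with siE8, while siE4 gave -0.15, not past the test. FARSB rose by 0.23 with siE4, 0.26 with siE6 and 0.27 with siE8, and KARS1 by 0.23 with siE6 and 0.17 with siE8. HARS1 had 75.3, 69.2 and 77.3 CPM in siE4 libraries, 52.2, 59.6 and 53.3 CPM in siE6 libraries and 65.9, 71.7 and 72.3 CPM in siE8 libraries, against 87.8, 87.8 and 87.9 CPM in control siRNA libraries, and was lower in all 9 siRNA libraries, at -0.25 ± 0.057, -0.67 ± 0.058 and -0.33 ± 0.057. Protein-coding transcripts took 87.9% of its matched reads with siE6 and 94.2% with the control siRNA, and the part of this was not tested. LARS1 had 463, 444 and 452 CPM in siE6 libraries, against 619, 623 and 645 CPM in control siRNA libraries, a log2 fold change of -0.47 ± 0.042. The other calls were falls in EPRS1, IARS1, MARS1 and SARS1 with siE4 (between -0.53 and -0.21) and siE6 (between -0.40 and -0.18), in QARS1 (-0.24) and VARS1 (-0.64) with siE4, and rises in QARS1 (0.12) and VARS1 (0.31) with siE8. The siE8 groups of QARS1 overlapped, and its call ended without siE8 replicate 2 or 3 or control replicate 1 or 3 (adjusted p up to 0.12), and that of VARS1 without siE8 replicate 1 or control replicate 1 or 3 (adjusted p up to 0.078).

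Of 15 mitochondrial synthetases siE4 lowered 6 and raised 3 (median -0.060), siE6 lowered 2 and raised 5 (median 0.0070), and siE8 lowered 2 and raised 2 (median -0.024). HARS2 had 28.1, 29.5 and 27.7 CPM in siE4 libraries, 58.8, 59.2 and 61.4 CPM in siE6 libraries and 40.0, 43.2 and 41.8 CPM in siE8 libraries, against 47.2, 47.9 and 43.5 CPM in control siRNA libraries. It fell with siE4 (-0.70 ± 0.048) and rose by 0.37 ± 0.047 with siE6. Its siE8 value of -0.15 ± 0.047 was lost without siE8 replicate 1 or control replicate 1 or 2 (adjusted p up to 0.064). SARS2 had 7.88, 7.46 and 6.53 CPM in siE4 libraries, 15.7, 16.2 and 14.1 CPM in siE6 libraries and 9.87, 9.22 and 11.1 CPM in siE8 libraries, against 11.4, 12.5 and 11.1 CPM in control siRNA libraries, a log2 fold change of -0.67 ± 0.095 and a rise of 0.40 ± 0.092, and -0.21 with siE8, which did not pass. The proline enzyme PARS2 had 8.25, 8.73 and 8.84 CPM in siE4 libraries, against 13.1, 14.9 and 12.8 CPM in control siRNA libraries, a log2 fold change of -0.66 ± 0.089. MARS2 had 16.1, 16.9 and 16.8 CPM in siE4 libraries, 29.2, 29.1 and 27.4 CPM in siE6 libraries and 19.1, 20.9 and 22.3 CPM in siE8 libraries, against 23.8, 25.2 and 23.9 CPM in control siRNA libraries, changes of -0.55 ± 0.060, 0.23 ± 0.058 and -0.22 ± 0.059 in that order.

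IARS2 rose with siE4, with 525, 539.9 and 512 CPM in siE4 libraries, against 429.7, 439 and 439 CPM in control siRNA libraries, a log2 fold change of 0.27 ± 0.035 where its cytosolic counterpart IARS1 fell (-0.26 ± 0.042). EARS2 had 20.5, 20.9 and 20.4 CPM in siE4 libraries and 23.4, 21.3 and 22.3 CPM in siE6 libraries, against 15.6, 16.6 and 18.3 CPM in control siRNA libraries, but its rises of 0.29 ± 0.065 and 0.41 ± 0.065 did not pass with the length offset (adjusted p = 0.90 with siE4 and 0.36 with siE6). YARS2 had 33.8, 34.1 and 32.7 CPM in siE4 libraries and 31.2, 34.4 and 32.3 CPM in siE8 libraries, against 29.1, 30.2 and 28.8 CPM in control siRNA libraries; its rises of 0.19 with siE4 and 0.15 with siE8 were likewise lost with the length offset (adjusted p = 0.13 and 0.72), the siE8 one also without siE8 replicate 2. WARS2 had 39.4, 39.5 and 42.6 CPM in siE6 libraries, against 45.9, 47.4 and 48.9 CPM in control siRNA libraries, a log2 fold change of -0.23. LARS2 had 70.0, 70.3 and 68.3 CPM in siE6 libraries, against 76.6, 77.1 and 75.9 CPM in control siRNA libraries, a log2 fold change of -0.14, and neither overlapped its controls. CARS2, FARS2, NARS2 and RARS2 passed the test with none of these siRNAs, although RARS2 lay at 0.53 with siE4, 0.27 with siE6 and -0.56 with siE8. AARS2 (-0.40) and TARS2 (-0.30) fell with siE4. The AARS2 rises with siE6 (0.14) and siE8 (0.12) were lost without control replicate 3, with adjusted p of 0.051 in siE6 and up to 0.15 in siE8, and in siE8 also without control replicate 2 or siE8 replicate 3.

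AIMP2 had 41.7, 51.7 and 50.6 CPM in siE8 libraries, against 28.8, 31.1 and 32.8 CPM in control siRNA libraries, a rise of 0.64 ± 0.075 (adjusted p = 8.53e-06) in which the groups did not overlap. EEF1E1 had 68.1, 65.2 and 61.6 CPM in siE4 libraries and 66.1, 73.6 and 71.1 CPM in siE8 libraries, against 53.1, 53.6 and 57.7 CPM in control siRNA libraries, rises of 0.24 ± 0.052 with siE4 and 0.36 ± 0.052 with siE8. AIMP1 had 2.11, 1.59 and 1.44 CPM in siE4 libraries and 1.29, 1.72 and 1.64 CPM in siE6 libraries, against 2.49, 3.25 and 5.4 CPM in control siRNA libraries, log2 fold changes of -1.12 ± 0.31 and -1.25 ± 0.31 at a low level. The siE4 call of AIMP1 was lost without control replicate 3 (adjusted p = 0.053). Mitochondrial DNA gave 5.48% to 6.2% of reads with siE4, 4.37% to 6.22% with siE6 and 3.48% to 4.41% with siE8, against 2.75% to 4.99% in control siRNA libraries, and its part in these results was not tested.

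**Figure D3:**
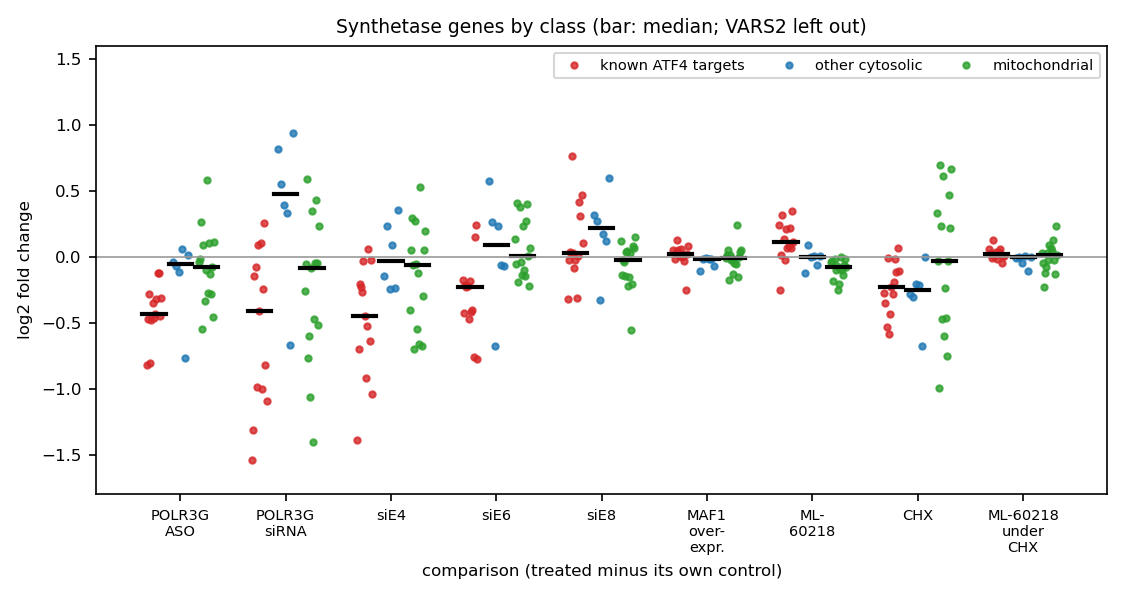
Each point is the log2 fold change (vertical axis) of one synthetase gene in one comparison (horizontal axis), with bars at the class medians. The classes are cytosolic genes known as ATF4 targets, other cytosolic genes and mitochondrial genes, with VARS2 left out. With the POLR3G siRNA the known targets have a median of -0.41 and the other cytosolic genes one of 0.47, and in the MAF1 comparison all classes lie near 0.

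MAF1 overexpression changed no synthetase or scaffold gene past the test, with medians of -0.0061 for the cytosolic and -0.011 for the mitochondrial class beside an all-gene median of 0.0032. Across the 15543 genes tested 0.0322% rose and 0.00643% fell, so there was little background of calls here. At an unadjusted p under 0.05, edgeR had 3 cytosolic genes higher and 3 lower, 1 mitochondrial gene higher and 1 lower and 0 scaffold genes either way, and DESeq2 called 0 in each class. AARS1, as an example, had 267, 252 and 235 CPM in MAF1 libraries, against 245, 246 and 236 CPM in eGFP libraries, overlapping groups with a log2 fold change of 0.053 ± 0.044. GARS1 had the highest value of the cytosolic class at 0.13 ± 0.034 and VARS1 the lowest at -0.25 ± 0.11.

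In THP-1 cells a 4 h exposure to ML-60218 raised 6 of 19 cytosolic synthetases and lowered 0 (median 0.066), where 8.48% of the 15327 genes tested rose and 7.05% fell (median -0.0086). By edgeR 2 cytosolic genes were lower at an unadjusted p under 0.05, and DESeq2 called 0 lower. All 6 that rose belong to the 13 known ATF4 targets (median 0.11), and of the 6 other cytosolic genes 0 rose and 0 fell, 1 higher and 2 lower at an unadjusted p and 0 by DESeq2. Of 16 mitochondrial genes 3 fell and 0 rose (median -0.076), with 0 higher at an unadjusted p by edgeR and 0 by DESeq2. No scaffold gene passed the test in either direction, also not at an unadjusted p or by DESeq2.

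WARS1, the tryptophan enzyme, had 77.2, 83.5 and 72.2 CPM in ML-60218 libraries, against 61.5, 63.6 and 58.2 CPM in DMSO libraries. GARS1 had 144, 165 and 143 CPM in ML-60218 libraries, against 118, 127 and 118 CPM in DMSO libraries. TARS1 had 255, 267 and 245 CPM in ML-60218 libraries, against 224, 229 and 208 CPM in DMSO libraries. In all 3 every ML-60218 library was above every DMSO library, with log2 fold changes of 0.34 ± 0.054 for WARS1, 0.32 ± 0.050 for GARS1 and 0.22 ± 0.038 for TARS1 (adjusted p at most 0.0024). AARS1, with 119, 119 and 103 CPM in ML-60218 libraries, against 97.1, 95.2 and 95.9 CPM in DMSO libraries, rose by 0.24 ± 0.057 (adjusted p = 0.013), a call lost without ML-60218 replicate 1 or 2 (adjusted p up to 0.064). MARS1 had 114, 121 and 112 CPM in ML-60218 libraries, against 99, 101 and 101 CPM in DMSO libraries, a rise of 0.21 ± 0.035 that did not pass with the length offset (adjusted p = 0.059). IARS1 rose by 0.13 ± 0.027, with 235, 228 and 224 CPM in ML-60218 libraries, against 216, 209 and 203 CPM in DMSO libraries.

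MARS2 had 20.1, 20.6 and 20.4 CPM in ML-60218 libraries, against 24, 22.7 and 23.8 CPM in DMSO libraries, a log2 fold change of -0.20 ± 0.047 (adjusted p = 0.010) with no overlap, opposite to MARS1. LARS2, the mitochondrial leucine enzyme, had 25.8, 24 and 27.2 CPM in ML-60218 libraries, against 30.8, 31.9 and 29.2 CPM in DMSO libraries, a log2 fold change of -0.25 ± 0.059. HARS2 had 57.7, 58 and 57.7 CPM in ML-60218 libraries, against 61.4, 62.7 and 61.9 CPM in DMSO libraries, a log2 fold change of -0.10 ± 0.026. The call of LARS2 was lost without DMSO replicate 2 or ML-60218 replicate 2 and with the length offset, and that of HARS2 without DMSO replicate 2 or any 1 ML-60218 library (adjusted p up to 0.064 for both).

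CHX lowered 13 of 19 cytosolic synthetases relative to DMSO on the TMM scale. The summed TPM of all 19, which takes no TMM factor, was 1283 ± 13 TPM with CHX and 1256 ± 26 TPM with DMSO. How far the falls of single genes depend on the scale was not tested. The CHX libraries share their DMSO controls with the ML-60218 comparison. Of 19 cytosolic genes 13 fell and 0 rose (median -0.23), where 32.5% of the 15327 genes tested fell and 33.5% rose (median -0.0056); 0 were higher at an unadjusted p by edgeR and 0 by DESeq2. Of 16 mitochondrial genes 7 rose (43.8%) and 6 fell (37.5%), shares near those of all genes (median 0.091), and of the scaffold genes AIMP2 fell. Of the 7 enzymes of the multisynthetase complex 6 fell.

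QARS1 had 114, 115 and 114 CPM in CHX libraries, against 191, 181 and 177 CPM in DMSO libraries. IARS1 had 138, 139.7 and 140.0 CPM in CHX libraries, against 216, 209 and 203 CPM in DMSO libraries. The glutamate and proline enzyme EPRS1, which carries both activities in one protein, had 325, 323 and 337 CPM in CHX libraries, against 482, 490.3 and 450.1 CPM in DMSO libraries. LARS1, the leucine enzyme, had 157, 170.4 and 169.8 CPM in CHX libraries, against 231, 220.1 and 222 CPM in DMSO libraries, and in all 4 genes the groups did not overlap, with log2 fold changes of -0.68 ± 0.030 for QARS1, -0.59 ± 0.027 for IARS1, -0.53 ± 0.032 for EPRS1 and -0.44 ± 0.045 for LARS1 (adjusted p at most 1.81e-06). FARSB, FARSA, NARS1, AARS1, MARS1, KARS1, HARS1 and SARS1 fell, with values between -0.31 and -0.19. Protein-coding transcripts took 68.6% of the matched MARS1 reads with CHX and 58.5% with DMSO, 92.2% and 85.5% for LARS1 and 95.4% and 87.4% for YARS1, and the part of this in their falls was not tested. The fall of YARS1 (-0.11) was lost without CHX replicate 2 or DMSO replicate 2 and with the length offset (adjusted p up to 0.14). GARS1, RARS1, TARS1, VARS1 and WARS1 did not pass the test.

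FARS2 had 8.56, 8.85 and 8.67 CPM in CHX libraries, against 5.9, 5.23 and 5.02 CPM in DMSO libraries. YARS2 had 44.8, 46.4 and 42.6 CPM in CHX libraries, against 29.4, 28.2 and 27 CPM in DMSO libraries. LARS2 had 48.9, 45 and 46.2 CPM in CHX libraries, against 30.8, 31.9 and 29.2 CPM in DMSO libraries. All 3 were higher in every CHX library, by 0.69 ± 0.073 for FARS2, 0.66 ± 0.044 for YARS2 and 0.61 ± 0.057 for LARS2 (adjusted p at most 2.24e-06). TARS2 (0.47), AARS2 (0.33), HARS2 (0.23) and WARS2 (0.22) rose less. For HARS2 the protein-coding share of matched reads was 90.01% with CHX and 83.7% with DMSO, and its part was not tested. The WARS2 rise did not pass with the length offset (adjusted p = 0.051).

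EARS2 had 10.7, 10.5 and 8.89 CPM in CHX libraries, against 22.1, 19.3 and 18.6 CPM in DMSO libraries. The arginine enzyme RARS2, called in no other comparison, had 22.1, 20.2 and 20.2 CPM in CHX libraries, against 31, 39.6 and 34.8 CPM in DMSO libraries. MARS2 had 15.4, 16.2 and 14.9 CPM in CHX libraries, against 24, 22.7 and 23.8 CPM in DMSO libraries. Each was lower in every CHX library, with log2 fold changes of -0.99 ± 0.12 for EARS2, -0.75 ± 0.11 for RARS2 and -0.60 ± 0.047 for MARS2 (adjusted p at most 6.78e-05). Protein-coding transcripts took 69.7% of the matched EARS2 reads with CHX and 84.1% with DMSO, and the part of this in its fall was not tested. PARS2 and IARS2 fell, at -0.47 and -0.47, and NARS2, whose groups overlapped, at -0.23, a call lost without any 1 CHX library or without DMSO replicate 1 or 2 (adjusted p up to 0.28 over the alternatives). CARS2, SARS2 and VARS2 did not pass the test. AIMP2 had 14.6, 15.8 and 16.2 CPM in CHX libraries, against 21.5, 21.5 and 19.4 CPM in DMSO libraries, a log2 fold change of -0.42 ± 0.078. Reads from mitochondrial DNA made up 3.88% to 4.5% in CHX libraries and 6.25% to 7.0% in DMSO libraries, and the part of this in the mitochondrial results was not tested.

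With CHX present, ML-60218 moved few synthetases. Set against CHX alone, 1 of 19 cytosolic genes fell and 0 rose (median 0.0037), where 7.75% of 15327 genes fell and 8.75% rose (median -0.0048); 1 cytosolic gene was higher at an unadjusted p by edgeR and 0 by DESeq2. QARS1 had 106, 109.6 and 104 CPM in CHX plus ML-60218 libraries, against 114, 115 and 114 CPM in CHX libraries, a log2 fold change of -0.11 ± 0.031 (adjusted p = 0.031) that was lost without any 1 CHX library and without CHX plus ML-60218 replicate 1 or 3 (adjusted p up to 0.54 over the alternatives). TARS2 had 70.5, 72.4 and 71.2 CPM in CHX plus ML-60218 libraries, against 77.3, 80.7 and 76.4 CPM in CHX libraries, a log2 fold change of -0.13 ± 0.034 lost without CHX replicate 2 or CHX plus ML-60218 replicate 1 and with the length offset (adjusted p up to 0.15). WARS2 had 28.4, 26.3 and 27.7 CPM in CHX plus ML-60218 libraries, against 23.3, 23.1 and 23.8 CPM in CHX libraries, a rise of 0.23 ± 0.049 lost with the length offset (adjusted p = 0.14). TARS2 and WARS2 were the only mitochondrial genes of 16 to pass, and no scaffold gene did, at an unadjusted p and by DESeq2 included.

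The difference between the ML-60218 effects with and without CHX was tested as an interaction. It was below 0 for 2 of 19 cytosolic genes and above 0 for 0 (median -0.045), where 3.7% of the 15327 genes tested were below and 2.86% above 0 (median 0.0058), and above 0 for 1 of 16 mitochondrial genes (median 0.076). It was -0.22 ± 0.049 for MARS1 (adjusted p = 0.019), -0.34 ± 0.077 for WARS1 (adjusted p = 0.021) and 0.30 ± 0.067 for MARS2 (adjusted p = 0.022). The opposite signs of MARS1 and MARS2 go with their opposite ML-60218 effects without CHX, of 0.21 and -0.20, and their values under CHX, of -0.016 and 0.091, did not pass. No cytosolic gene was above 0 and no mitochondrial gene below 0 at an unadjusted p by edgeR, nor by DESeq2. The WARS1 call was lost without CHX replicate 1 or 3 (adjusted p up to 0.052). That of MARS1 was lost without CHX replicate 3, CHX plus ML-60218 replicate 1 or 2 or DMSO replicate 1, and with the length offset (adjusted p up to 0.78). That of MARS2 was lost without CHX replicate 1 or 3, CHX plus ML-60218 replicate 1, DMSO replicate 1 or ML-60218 replicate 1, and with the length offset (adjusted p up to 0.061).

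**Figure D4:**
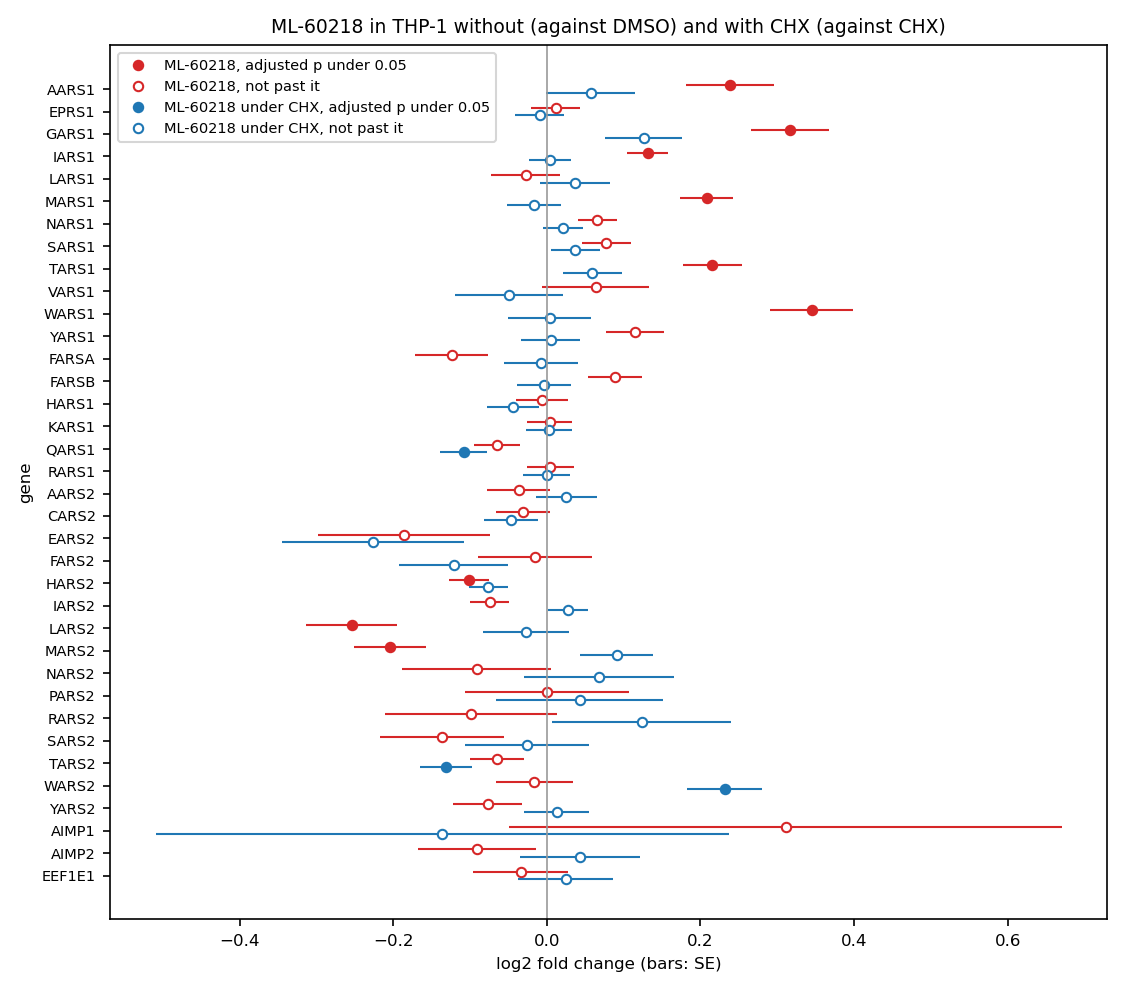
Log2 fold change with its standard error (horizontal bars) for the synthetase and scaffold genes in THP-1 cells, with VARS2 and CARS1 left out. ML-60218 against DMSO is in red and CHX plus ML-60218 against CHX in blue, filled where the adjusted p was under 0.05. WARS1 lies at 0.34 without CHX and at 0.0037 with CHX, and MARS2 at -0.20 and 0.091.

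The ratio of summed cytosolic to summed mitochondrial synthetase TPM gives one value per library, without a test and without VARS2. It weighs genes by their level and can part from the class medians, since IARS2 alone holds a large share of the mitochondrial sum. With the POLR3G ASO it was 5.25, 5.29 and 5.18, against 6.22, 6.18 and 6.32 with the scrambled ASO, so the ASO libraries were lower. With the POLR3G siRNA it was 7.25, 7.1 and 6.99, against 6.17, 6.3 and 6.33 with the control siRNA, so these were higher. Both siE4, at 4.66, 4.6 and 4.73, and siE6, at 5.03, 5.06 and 4.89, lay below the control siRNA libraries at 5.67, 5.84 and 5.98, whereas siE8, at 6.51, 6.6 and 6.63, lay above them. MAF1 and eGFP libraries overlapped, at 5.33, 5.25 and 5.32 with MAF1 and 5.19, 5.22 and 5.29 with eGFP. In THP-1 cells ML-60218 gave 4.41, 4.55 and 4.35, CHX 3.18, 3.13 and 3.29 and CHX plus ML-60218 3.19, 3.2 and 3.28, against 4.01, 3.97 and 3.91 with DMSO.

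The parts of the ratio moved differently between knockdowns. The summed cytosolic TPM was 2173 ± 9.5 with the POLR3G ASO and 2451 ± 66 with the scrambled ASO, and the summed mitochondrial TPM 415 ± 5.8 and 393 ± 6.1 (SD, n = 3 each). With the POLR3G siRNA both sums were lower than with its control, at 2343 ± 49 and 2927 ± 61 TPM for the cytosolic and 329.7 ± 13 and 467 ± 3.4 TPM for the mitochondrial class. Of the mitochondrial sum, IARS2 made up 69.7 ± 1.9 TPM with the POLR3G siRNA and 156 ± 0.39 TPM with its control, so the higher ratio there stands beside class medians of -0.15 for cytosolic and -0.083 for mitochondrial genes. TPM is scaled to each library's total and takes no TMM factor, so directions can differ from the test. With the POLR3G ASO the mitochondrial sum was higher although 6 of 15 genes fell and 2 rose in the test. TARS1, at 225 ± 3.9 and 211 ± 4.3 TPM, and HARS1, at 45.4 ± 1.6 and 44.9 ± 0.35 TPM, had higher mean TPM with the ASO than with the scrambled ASO, while both fell in the test (-0.13 and -0.11). With CHX the cytosolic sum was 1283 ± 13 TPM, against 1256 ± 26 TPM with DMSO, although 13 of its genes fell on the TMM-scaled scale, and the mitochondrial sum was 401 ± 7.2 TPM, against 317 ± 3.5 TPM. The direction of these sums thus depends on the scale, and so do the small falls of TARS1 and HARS1. For the falls of single genes with CHX, the part of the scale was not tested.

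**Figure D5:**
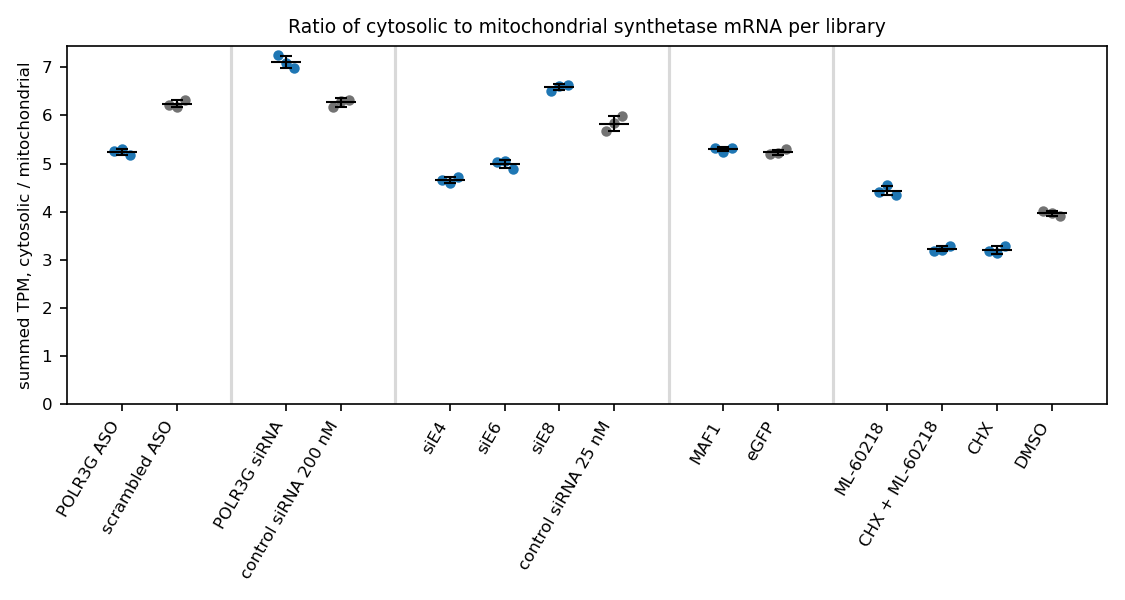
Ratio of summed cytosolic to summed mitochondrial synthetase TPM (vertical axis, VARS2 left out) in each library (points) with the mean and SD of each group. HEK293T groups lie between 4.6 and 7.25 and THP-1 groups between 3.13 and 4.55, with siE4 and siE6 below and siE8 above their shared control.

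For 13 amino acids the family holds a cytosolic and a mitochondrial gene of matching symbols, such as AARS1 and AARS2, 12 of these pairs testable in HEK293T cells. Phenylalanine (FARSA and FARSB with FARS2), glutamate (EPRS1 with EARS2) and proline (EPRS1 with PARS2) lack matching symbols and are not counted here. Where many of all genes pass the test, pairs with both genes called in like or opposite directions also occur among unrelated genes, so the counts describe the pairs and are not a result about them. The shares of all genes higher and lower were 34.4% and 34.1% with the POLR3G ASO, 36.8% and 38.1% with the POLR3G siRNA, 26.2% and 28.7% with siE4, 31.2% and 31.8% with siE6, 29.1% and 28.6% with siE8, 8.48% and 7.05% with ML-60218 and 33.5% and 32.5% with CHX. With the POLR3G ASO both genes of a pair passed in 6 pairs, 5 in the same direction and 1, the methionine pair, in opposite directions. With the POLR3G siRNA 3 pairs moved together and 5 (histidine, methionine, asparagine, serine and tyrosine) apart. The counts were 4 together and 2 apart (isoleucine and tyrosine) with siE4, 1 and 5 (alanine, histidine, methionine, serine and tryptophan) with siE6, 1 and 1 (alanine) with siE8, 0 and 1 (methionine) with ML-60218, and 3 and 4 (alanine, histidine, leucine and tyrosine) with CHX. MAF1 overexpression and ML-60218 under CHX gave 0 of either kind.

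MARS1 and MARS2 moved apart in 4 of these comparisons, MARS1 by -0.47, -0.41, -0.18 and 0.21 and MARS2 by 0.58, 0.35, 0.23 and -0.20 with the POLR3G ASO, POLR3G siRNA, siE6 and ML-60218. Both fell with siE4, at -0.45 and -0.55, and with CHX, at -0.23 and -0.60. The annotated span of MARS1 shares 982 bases with DDIT3 and 13370 bases with ARHGAP9, both on the opposite strand. HARS1 and HARS2, whose common start region is printed above, had 0.39 and -0.60 with the POLR3G siRNA, -0.25 and -0.70 with siE4, -0.67 and 0.37 with siE6, -0.33 and -0.15 with siE8, and -0.20 and 0.23 with CHX. They were thus opposite in 3 of these 5 comparisons and together with siE4 and siE8. Their annotated spans overlap by 437 bases on opposite strands. The library kit was stranded, but whether the counting used strand is not given in the sources used here. Part of either value may therefore come from the other gene. The same limit applies to MARS1 and to other members with genes on the opposite strand. Among these are YARS2, which shares 18161 bases with DNM1L, and AIMP2, which shares 1591 bases with EIF2AK1.

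The genes around tRNA charging were described from a list of 17 partners, 16 of them tested. Of these 1 rose and 9 fell with the POLR3G ASO (median -0.12), 10 rose and 4 fell with the POLR3G siRNA (median 0.12), 3 and 4 with siE4 (median 0.026), 7 and 7 with siE6 (median 0.17), 8 and 3 with siE8 (median 0.17), 1 and 1 with ML-60218 (median -0.021) and 3 and 7 with CHX (median -0.17). As shares of the 16, these were 6.25% higher and 56.2% lower with the ASO, against 34.4% and 34.1% of all genes, and 62.5% and 25.0% with the POLR3G siRNA, against 36.8% and 38.1%. They were 18.8% and 25.0% with siE4, against 26.2% and 28.7%, 43.8% each with siE6, against 31.2% and 31.8%, and, with siE8, 8 of 16 higher and 18.8% lower, against 29.1% and 28.6%. With ML-60218 they were 6.25% each, against 8.48% and 7.05%, and with CHX 18.8% and 43.8%, against 33.5% and 32.5%. The siE4 and ML-60218 shares thus lie near those of all genes. MAF1 overexpression and ML-60218 under CHX changed 0 (1 higher and 1 lower, and 0 higher and 2 lower, at an unadjusted p by edgeR, and 0 by DESeq2). QRSL1, a subunit of the amidotransferase that completes mitochondrial glutamine tRNA after EARS2 has charged it, rose by 0.39 with the ASO, 1.09 with the siRNA, 0.47 with siE4, 0.93 with siE8 and 0.31 with CHX. GATC, another subunit, rose by 0.83 with the siRNA and 0.55 with siE6 and fell with siE8 (-0.86). The tRNA exporter XPOT fell, at -0.31 with the ASO, -0.92 with siE4 and -0.65 with CHX, and rose by 0.15 with ML-60218. SEPSECS, which makes selenocysteine on its tRNA, fell with the ASO (-0.73) and rose by 1.72 with CHX. TARS3, a further cytosolic threonine enzyme, fell, at -1.04 with siE4 and -1.03 with siE6.

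Genes of ATF4 and the amino acid stress response that are not synthetases, 13 tested of 14 listed, were set beside the synthetases. Of these 3 rose and 7 fell with the POLR3G ASO (median -0.10), 0 rose and 12 fell with the siRNA (median -1.4), 1 and 9 with siE4 (median -0.76), 1 and 11 with siE6 (median -0.69) and 4 and 5 with siE8 (median -0.016). With the siRNA 0 were higher at an unadjusted p by edgeR and 0 by DESeq2. The shares of the 13 that fell were 53.8% with the ASO, against 34.1% of all genes, 92.3% with the siRNA, against 38.1%, 69.2% with siE4, against 28.7%, 84.6% with siE6, against 31.8%, and 38.5% with siE8, against 28.6%. The siE8 rises, 30.8% against 29.1% of all genes, and the ASO rises, 23.1% against 34.4%, are near or under the background. MAF1 overexpression raised 1, ML-60218 raised 8 and lowered 0 (1 lower at an unadjusted p, and 1 by DESeq2; median 0.46), CHX raised 3 and lowered 7 (median -0.49), and ML-60218 under CHX raised 4 and lowered 0, with 0 lower at an unadjusted p or by DESeq2. These were 61.5% higher with ML-60218, against 8.48% of all genes, 23.1% higher and 53.8% lower with CHX, against 33.5% and 32.5%, and 30.8% higher with ML-60218 under CHX, against 8.75%.

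ATF4 mRNA rose in 3 of the knockdowns. With the ASO, ATF4 had 43.7, 37.6 and 46.4 CPM in POLR3G ASO libraries, against 31.1, 26.9 and 28.7 CPM in scrambled ASO libraries, a rise of 0.56 ± 0.080 in the experiment in which 12 of 13 of its known synthetase targets fell. With the POLR3G siRNA it changed by -0.19 ± 0.041, with siE6 by 0.40 ± 0.13, with siE8 by 0.91 ± 0.13 and with CHX by -1.0 ± 0.062, and its values of -0.060 with siE4 and -0.10 with ML-60218 did not pass. ATF4 protein was not measured in these libraries. CHAC1, a glutathione-degrading ATF4 target, changed by -1.19 with the ASO, -4.13 with the siRNA, -3.28, -2.68 and -1.61 with siE4, siE6 and siE8, and 2.32 with ML-60218, and its interaction with CHX was -2.69 ± 0.69. DDIT3, the stress transcription factor CHOP, rose by 0.92 with the ASO and fell with siE6 (-1.4), and it lies opposite MARS1. The cystine transporter gene SLC7A11 fell with the siRNA (-2.69) and rose by 1.24 with ML-60218. Of the synthetases, the 6 that rose with ML-60218 moved by at most 0.34.

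Across the 14 group means, the genes most like the mean of the 13 known ATF4-target synthetases by Pearson correlation were BCAT1, CFAP20DC, EDNRA, PPP1R26 and CDH7. Their coefficients were 0.989, 0.988, 0.988, 0.988 and 0.986 over 14 groups, and 0.945, 0.926, 0.940, 0.935 and 0.886 over the 10 HEK293T groups alone. BCAT1 encodes a branched-chain aminotransferase. The points share control groups and the difference between the cell lines, so these values are a description.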

How the data were processed

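The data are stranded mRNA libraries of HEK293T and THP-1 cells, sequenced as paired reads of 151 cycles. The deposited tables hold, per transcript, the authors' estimated count (NumReads) and TPM, per the file headers. The submitters' processing notes name bcl2fastq 2.20, Trim Galore, Salmon, DESeq2 and hg38; further versions, and the annotation, are not stated there or in other sources used here.

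Of 194142 transcripts 158359 (81.6%, with 91.1% of reads) were matched by identifier to GENCODE 29 and summed to 34318 genes; 8.06% to 9.54% of reads per library stayed unmatched. Estimated counts were rounded, filtered with filterByExpr, scaled by TMM and tested per experiment with edgeR 4.0.16 in R 4.3.3 (quasi-likelihood F test, Benjamini-Hochberg adjusted p under 0.05 over all genes). All THP-1 groups shared 1 fit, which also gave the interaction, and all groups of the POLR3GL siRNA experiment shared another. The ASO minus siRNA difference came from a joint fit. TPM was summed per gene for levels. Python 3.11.15 (pandas 2.3.3, numpy 2.4.6; matplotlib 3.10.9 for figures) gave summaries, and promoter windows are RefSeq's. The fits were tested on simulated data.

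The members and gene lists were chosen with earlier results of these data known. Every member tested was counted in its class, but not every uncalled gene is named. Those named in full were, per direction, the 4 cytosolic and 3 mitochondrial genes with the largest changes past the test, scaffold genes past it, the targeted genes, ATF4 and up to 3 listed partners or stress genes. Alternatives were DESeq2 1.42.0, its size factors, no filter, a length offset, a replicate block and leaving out each library. Same-numbered libraries correlated between -0.24 and 0.35 in their deviations, so the numbers were not taken to pair them. Rounded counts of overlapping or near-identical genes depend on how Salmon divided reads. EEF1B2 and SESN2 were not analysed here.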

Additional observations from a re-analysis of the deposited data

Results flagged for a closer look

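The ML-60218 effect differed between THP-1 cells with and without CHX in 3 synthetase genes, by the interaction test of edgeR over all genes. The difference was -0.22 on the log2 scale for MARS1, -0.34 for WARS1 and 0.30 for MARS2. Of the 15327 genes tested 3.7% were below and 2.86% above 0. WARS1 and MARS1 rose with ML-60218 alone and MARS2 fell, and none of the 3 passed the test under CHX. Each of these 3 interactions was lost when certain single libraries were left out.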

How the results depend on the processing

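Of 194 calls among 411 results on the 38 genes, 158 kept their call under every alternative run, 36 lost it under at least 1, and 1 changed sign, while 34 of the 217 uncalled results passed under an alternative. DESeq2 size factors, DESeq2 and the length offset each moved the median of all genes by at most 0.020. Like TMM, these scalings centre most genes near 0, so this small shift cannot show whether results depend on scale. Some directions on the TPM scale differed from the test, as given above. With DESeq2 size factors 1 cytosolic gene was higher with the POLR3G ASO, against 0. With the length offset 1 mitochondrial gene was higher with siE4, against 3, and 1 with siE8, against 2. Under CHX the same setting left 0 genes in each class called for ML-60218 and, for the interaction, 1 cytosolic gene below and 0 mitochondrial genes above 0. It left 1 mitochondrial gene below 0 in the ASO minus siRNA difference, against 3. Without the filter 0 cytosolic genes fell with ML-60218 under CHX, against 1. Leaving out single libraries gave 1 to 3 mitochondrial genes higher with the POLR3G ASO, 1 to 3 higher and 1 to 4 lower with siE8, and 1 to 4 lower with ML-60218. It gave 0 to 1 cytosolic and 0 to 1 mitochondrial genes lower with ML-60218 under CHX, 0 to 3 cytosolic genes below and 0 to 2 mitochondrial genes above 0 for the interaction, and 1 to 3 mitochondrial genes below 0 for the ASO minus siRNA difference. With the replicate block 1 cytosolic gene was higher with ML-60218 under CHX, against 0; the block left the other class counts within 1.5 times, such as 15 cytosolic falls with the POLR3G ASO against 14, and the numbers did not pair the libraries.

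Values that changed sign were few and mostly of low or uncalled genes. With the length offset MAF1 had 0.057 with the POLR3G ASO, EIF2AK4 -0.036 with CHX, and EARS2 0.23 and GATB -0.027 in the ASO minus siRNA difference. Leaving out single libraries, ATF4 ranged from -0.18 (without siE4 replicate 2) to 0.11 (without control replicate 1) with siE4, and from -0.073 (without CHX plus ML-60218 replicate 2) to 0.0093 (without CHX plus ML-60218 replicate 3) for ML-60218 under CHX, where POLR3GL ranged from -0.049 (without CHX replicate 3) to 0.011 (without CHX replicate 2). POLR3G in THP-1 cells ranged from -0.77 to 0.86 with ML-60218 (without ML-60218 replicate 3 and without DMSO replicate 2), from -1.08 to 0.25 with CHX (without DMSO replicate 3 and 2), from -0.25 to 0.73 for ML-60218 under CHX (without CHX replicate 3 and 1) and from -0.64 to 0.99 for the interaction (without DMSO replicate 2 and without ML-60218 replicate 3). The cause was not tested. Depth limits AIMP1, VARS2 and the smallest mitochondrial transcripts, and 3 libraries a group limit every SE.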
